A study of Rattus norvegicus with 19 samples.

Results

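A set of 34 genes of skeletal muscle, coding for the contractile filaments, the Z disc, the calcium stores and the energy metabolism of muscle fibres, was followed in arrays of the T11 dorsal root ganglion of the rat. The members were all probe sets whose platform gene symbol was a name on the list, 53 probe sets of 31042 and 34 genes of 14217 with a symbol, and each gene was read by its brightest probe set, the one with the highest mean over all arrays. A total of 33 genes matched by the platform's own symbol, and Mylpf matched through its synonym Myl11. The ganglia came from adult female Sprague-Dawley rats, 1 ganglion and 1 array per rat. The naive group held 5 rats without an operation, and operated rats were taken at day 7 (7 rats) or day 14 (7 rats) after the dorsal and lateral cutaneous nerves of T9, T10, T12 and T13 were cut on 1 side, which left the skin nerves of T11 intact beside denervated skin. Naive rats had no sham operation, so surgery and denervation of the neighbouring skin cannot be told apart.

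Skeletal muscle contracts when myosin of the thick filament pulls on actin of the thin filament, after calcium released from the sarcoplasmic reticulum binds troponin C. Fibres are of a slow, fatigue-resistant type or of faster types, and slow and fast fibres use different genes for the same part, so that troponin C, for example, is Tnnc1 in slow and Tnnc2 in fast fibres. A dorsal root ganglion consists of sensory neurons, satellite glia, Schwann cells, vessels and connective tissue and has no muscle fibres of its own.

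The values were log2 expression levels on the scale of the robust multi-array average, between 3.48 and 14.02, and all comparisons below were made within a probe set. Correlations between arrays lay between 0.987 and 0.997, and no arrays held identical values. The tissue label was borne out by 16 measured genes of sensory neurons, whose mean lay between 11.97 and 12.30 on all arrays. Of the 34 muscle genes, 10 had a mean above that of the median probe set. In whole tissue, fewer cells of a type and less RNA per cell cannot be told apart.

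In every group a single array stood far above the rest in muscle transcripts, whether or not the rat had been operated. The mean over the 34 genes was 8.36 on naive replicate 1, while naive replicates 2, 3, 4 and 5 had 6.03, 6.12, 6.20 and 5.9995. At day 7 it ranged from 5.97 through a median of 6.39 to 8.06, the last on replicate 7. At day 14 it ranged from 6.03 through a median of 6.11 to 7.18, the last on replicate 2. The 3 groups overlapped throughout, and the highest array of all was from an unoperated rat. The naive mean was 6.54 ± 1.02 (SD, n = 5), the day 7 mean 6.49 ± 0.73 (SD, n = 7) and the day 14 mean 6.24 ± 0.41 (SD, n = 7). Without the highest array of each group they were 6.09 ± 0.09 (SD, n = 4), 6.23 ± 0.27 (SD, n = 6) and 6.09 ± 0.04 (SD, n = 6).

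**Figure D1:**
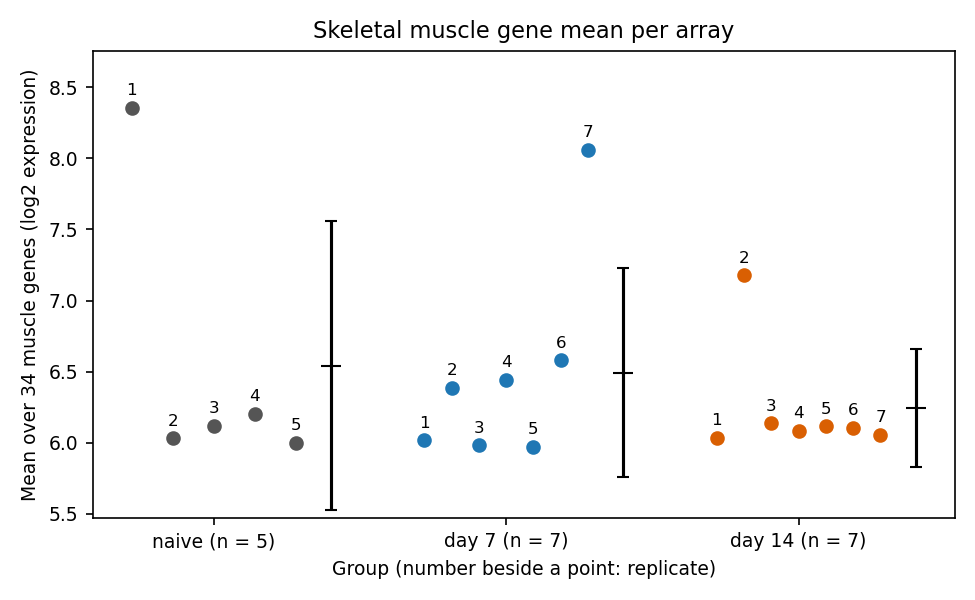
Each point is 1 array, and its height is the mean log2 expression over the 34 muscle genes. Black bars give the group mean and SD, and the highest points are naive replicate 1 at 8.36, day 7 replicate 7 at 8.06 and day 14 replicate 2 at 7.18.

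The pattern ran through most of the genes. Naive replicate 1 was the highest array of its group for 30 of 34 genes, as it was for 27.3% of all probe sets. Day 7 replicate 7 was the highest for 27 of 34 (20.9% of all probe sets) and day 14 replicate 2 for 27 of 34 (13.6%). In all 3 groups at once this held for 23 of 34 genes and for 2.29% of all probe sets. These arrays were found by the muscle genes themselves, so the counts describe the arrays and carry no test.

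The height of a gene on such an array is given below as its excess. This is the log2 value on the highest array of the group minus the median of the other arrays of that group. At day 7 that median takes in replicates 2, 4 and 6, which carried a smaller muscle signal, described below. An excess of at least 1 log2 unit was reached by 22 of 34 genes on naive replicate 1 (0.245% of all probe sets), by 21 on day 7 replicate 7 (0.203%) and by 13 on day 14 replicate 2 (0.139%). The median excess over the 34 genes was 2.08, 1.91 and 0.74 on the 3 arrays, beside 0.02, -0.00 and -0.01 over all probe sets. It ranged from -0.63 to 6.35, from -0.36 to 5.03 and from -0.38 to 4.14. The 13 genes with at least 1 on all 3 arrays (0.0515% of all probe sets) were Tnnc2, Myl1, Mylpf, Ckm, Actn3, Atp2a1, Pgam2, Acta1, Myh2, Tnni2, Ttn, Tnnt3 and Mb. Another 9 passed on 1 or 2 of the arrays, and 12 on none.

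**Figure D2:**
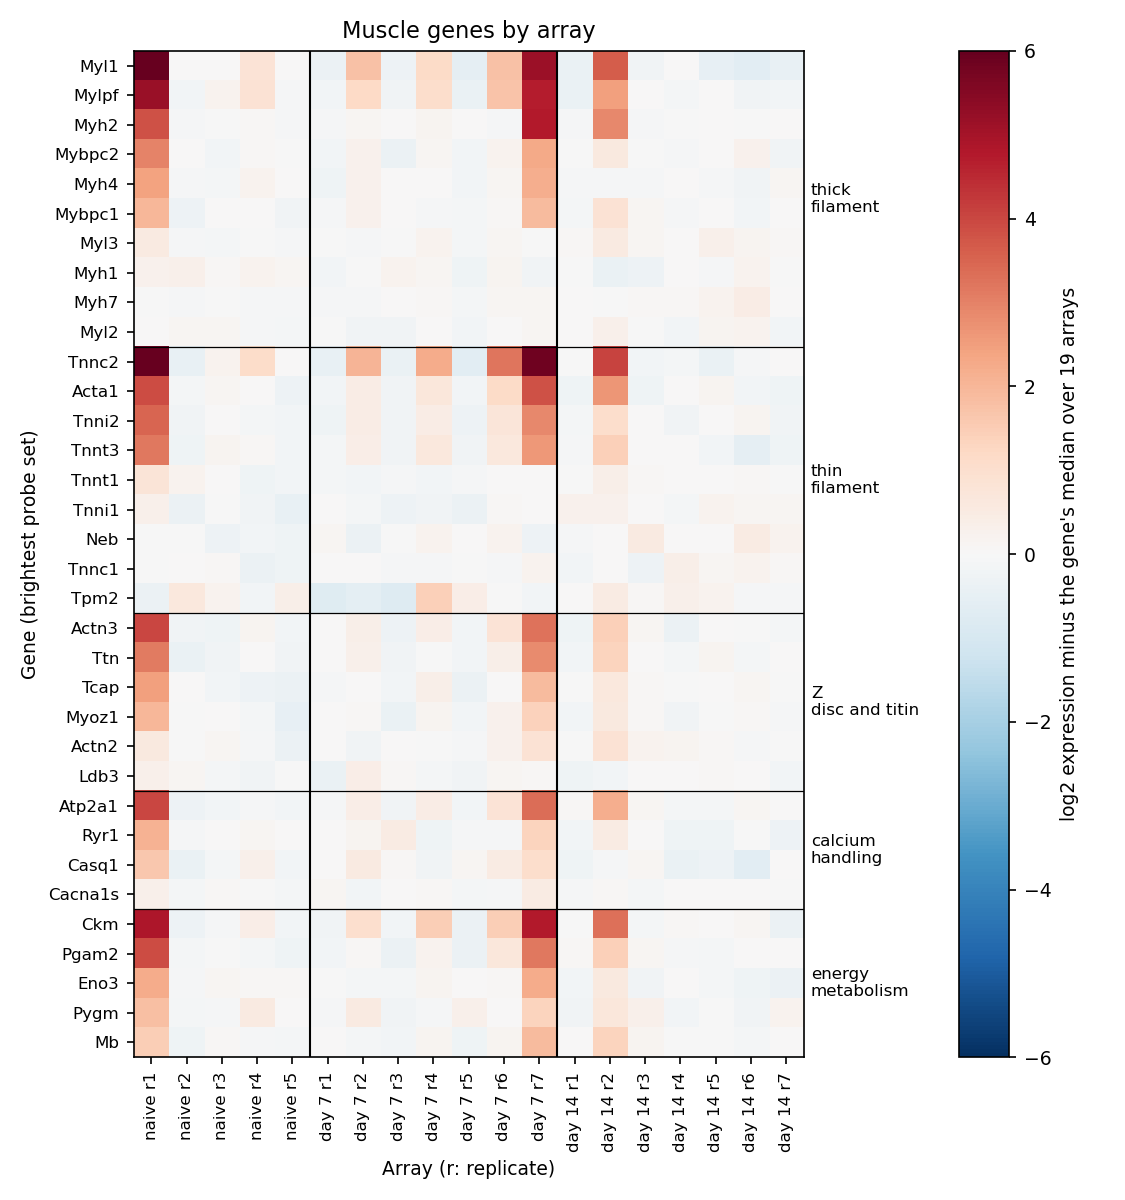
Rows are the 34 muscle genes by role, columns the 19 arrays, and colour is log2 expression minus the gene's own median over the 19 arrays. Naive replicate 1, day 7 replicate 7 and day 14 replicate 2 stand out in red, with fainter columns at day 7 replicates 2, 4 and 6.

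Among the thin filament genes, Acta1, the actin of adult skeletal muscle, had log2 values of 12.09, 8.06, 8.27, 8.16 and 7.87 on naive replicates 1 to 5. Its lowest, median and highest values were 7.94, 8.61 and 11.99 at day 7 and 7.91, 7.9974 and 10.82 at day 14. Each group thus held 1 array far above its others, with an excess of 3.98, 3.67 and 2.86. Tnnc2, the calcium sensor of the thin filament in fast fibres, had the highest excess of the set, and its values were 11.96, 5.04, 5.73, 6.59 and 5.50 in naive rats. At day 7 it ranged from 4.89 through a median of 7.53 to 11.34, and at day 14 from 5.10 through 5.45 to 9.56. Those excesses correspond to 81.4-fold, 32.6-fold and 17.6-fold on the 3 arrays.

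The fast troponins Tnnt3, which ties troponin to tropomyosin, and Tnni2, the inhibitory subunit, showed the same arrays at smaller size. Tnnt3 had 9.42, 5.97, 6.39, 6.32 and 6.10 in naive rats, 6.04, 6.64 and 8.84 as its lowest, median and highest values at day 7, and 5.72, 6.16 and 7.67 at day 14. Tnni2 had 9.45, 5.73, 5.94, 5.83 and 5.80 in naive rats, 5.63, 6.37 and 8.82 at day 7, and 5.73, 5.94 and 6.98 at day 14. A second probe set of Tnnt3 differed, with an excess of 0.19, -0.15 and -0.10. The slow counterparts Tnnt1, Tnni1 and Tnnc1 had a smaller excess, 0.83, 0.61 and 0.11 on naive replicate 1 and between -0.07 and 0.32 on the other two. Tnnt1, slow troponin T, had 6.02, 5.47, 5.29, 4.98 and 5.09 in naive rats, 5.07, 5.18 and 5.29 at day 7, and 5.24, 5.29 and 5.59 at day 14. Tnni1, slow troponin I, had 6.94, 6.26, 6.60, 6.42 and 6.21 in naive rats, 6.27, 6.53 and 6.71 at day 7, and 6.52, 6.77 and 6.88 at day 14. Tnnc1, troponin C of slow fibres and heart, had 7.89, 7.92, 7.99, 7.55 and 7.64 in naive rats, 7.82, 7.87 and 8.12 at day 7, and 7.62, 7.96 and 8.24 at day 14. For Tnnc1 the highest naive array was replicate 3, not replicate 1.

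Neb, the giant ruler protein of the thin filament, and Tpm2, beta-tropomyosin, were read differently by their probe sets. The brightest of Neb had an excess of 0.17, -0.36 and -0.13, while the dimmest had 1.52, 1.15 and 0.40. The brightest of Tpm2 had -0.63, 0.11 and 0.48, and its second had 1.83, 1.80 and 0.79. For both genes that dimmer probe set followed the other muscle transcripts and the brightest did not. Over the 9 thin filament genes 4 had an excess of at least 1 on each of the 3 arrays, and the median was 0.83, 0.26 and 0.48.

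In the thick filament, the myosin light chains of fast fibres led. Myl1, an essential light chain, had an excess of 6.17, 4.75 and 4.06, and Mylpf, the regulatory light chain, had 5.10, 4.29 and 2.58. Of the myosin heavy chains, the motor proteins that set the speed of a fibre, Myh2 of type IIa fibres had 8.31 on naive replicate 1 against 4.42 to 4.55 on the other naive arrays. It had 9.27 on day 7 replicate 7 against 4.43 to 4.66, and 7.39 on day 14 replicate 2 against 4.44 to 4.55. Myh4 of type IIb fibres had 7.06, 4.56, 4.52, 4.84 and 4.65 in naive rats, with 4.39, 4.65 and 6.81 as its lowest, median and highest values at day 7 and 4.43, 4.57 and 4.75 at day 14. Myh4 was thus high on the naive and the day 7 array, while day 14 replicate 2, at 4.57, lay inside the range of its group. The excess of Myh2 on the same array was 2.92.

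Myh1, the heavy chain of type IIx fibres, showed none of the pattern on any of its 5 probe sets, where the excess lay between -0.41 and 0.26. Its brightest probe set had 11.19, 11.22, 10.98, 11.14 and 11.05 in naive rats, 10.67, 10.91 and 11.13 at day 7, and 10.52, 10.90 and 11.13 at day 14. The level was therefore as high on arrays low in the other muscle transcripts, and whether these probe sets read muscle myosin in the ganglion was not tested. Myh7, the slow heavy chain, had 5.14, 5.09, 5.14, 5.08 and 5.09 in naive rats, 5.02, 5.15 and 5.28 at day 7, and 5.12, 5.22 and 5.60 at day 14. Its second probe set was at 6.20 on naive replicate 1 against 4.20 to 4.58 on the other naive arrays, at 4.50 on day 7 replicate 7, and at 5.91 on day 14 replicate 2 against 4.52 to 4.98. This probe set was high on the naive and the day 14 array but not on the day 7 array, while Myh4 was high on the naive and the day 7 array.

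The remaining thick filament genes divided the same way. Myl2, the slow regulatory light chain, had 5.87, 6.0022, 5.98, 5.79 and 5.76 in naive rats, 5.63, 5.84 and 5.96 at day 7, and 5.69, 5.86 and 6.19 at day 14. Myl3, its slow essential partner, had an excess of 0.60, 0.01 and 0.44. Mybpc2, the myosin-binding protein C of fast fibres, had 3.01, 2.30 and 0.60. Mybpc1, the slow form, had 2.09, 1.92 and 0.89 and was the only slow gene with an excess of at least 1 on its brightest probe set. Over the 10 thick filament genes the count of at least 1 was 6, 6 and 3.

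Z disc genes anchor the thin filaments at the ends of the sarcomere. Actn3, the alpha-actinin of fast fibres, had an excess of 4.21, 3.08 and 1.51, against 0.66, 0.89 and 0.82 for Actn2, the form found in all fibres. Ttn, the spring-like titin that spans from Z disc to the middle of the sarcomere, had 3.31, 2.83 and 1.39. Tcap, the cap of titin at the Z disc, had 7.93, 5.47, 5.30, 5.17 and 5.12 in naive rats, 5.12, 5.48 and 7.35 at day 7, and 5.44, 5.48 and 6.10 at day 14. Myoz1, a calcineurin-binding Z disc protein of fast fibres, had 2.05, 1.31 and 0.63. Ldb3, a PDZ and LIM domain protein, had 0.38, 0.12 and -0.15 on its brightest of 6 probe sets. Of these 6 genes, 4, 4 and 2 reached 1 on the 3 arrays.

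Calcium handling genes were led by Atp2a1, the calcium pump of the fast sarcoplasmic reticulum. It had 9.78, 5.49, 5.60, 5.69 and 5.63 in naive rats, 5.56, 6.19 and 9.14 as its lowest, median and highest values at day 7, and 5.66, 5.84 and 7.94 at day 14. Ryr1, the calcium release channel, had an excess of 2.07, 1.34 and 0.70. Casq1, the calcium buffer of the store, had 1.77, 0.98 and 0.22, and Cacna1s, the voltage sensor in the T tubule, had 0.38, 0.53 and 0.09. The order of excess from the naive to the day 14 array held for Atp2a1, Ryr1 and Casq1 but not for Cacna1s.

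All 5 genes of energy metabolism reached an excess of 1 on the naive and the day 7 array. Ckm, the muscle creatine kinase that buffers ATP, had 11.13, 5.97, 6.21, 6.67 and 6.11 in naive rats, 5.94, 7.28 and 11.06 at day 7, and 5.94, 6.29 and 9.58 at day 14. Its excess was 31.3-fold, 20.6-fold and 9.85-fold. Pgam2 and Eno3, the muscle isoforms of phosphoglycerate mutase and enolase in glycolysis, had 4.03, 3.20 and 1.41 and 2.15, 2.25 and 0.78. Pygm, glycogen phosphorylase of muscle, had 1.85, 1.34 and 0.78. Mb, the oxygen store myoglobin, had 1.59, 1.92 and 1.33, the highest of them on the day 7 array.

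The excess lay mostly in genes of fast fibres. Of 13 genes known from fast fibres, 12, 11 and 8 reached an excess of 1 on naive replicate 1, day 7 replicate 7 and day 14 replicate 2, against 1, 1 and 0 of 7 genes of slow fibres. The median excess of the fast genes was 3.64, 2.78 and 1.51, and that of the slow genes 0.60, 0.16 and 0.32. The difference, slow minus fast, was -3.05, -2.63 and -1.19 log2 units. These are medians over genes on single arrays and have no replicate error. Counts and medians read each gene by its brightest probe set. Among the slow genes, the second probe set of Myh7 had an excess of 1.81, -0.11 and 1.27, while those of Myl2 and Tnni1 stayed under 1. With only the members brighter than the median probe set, 3 fast and 1 slow, the difference was -1.66, -0.72 and -0.29, and with the mean of all probe sets of each gene it was -0.78 on the day 14 array.

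**Figure D3:**
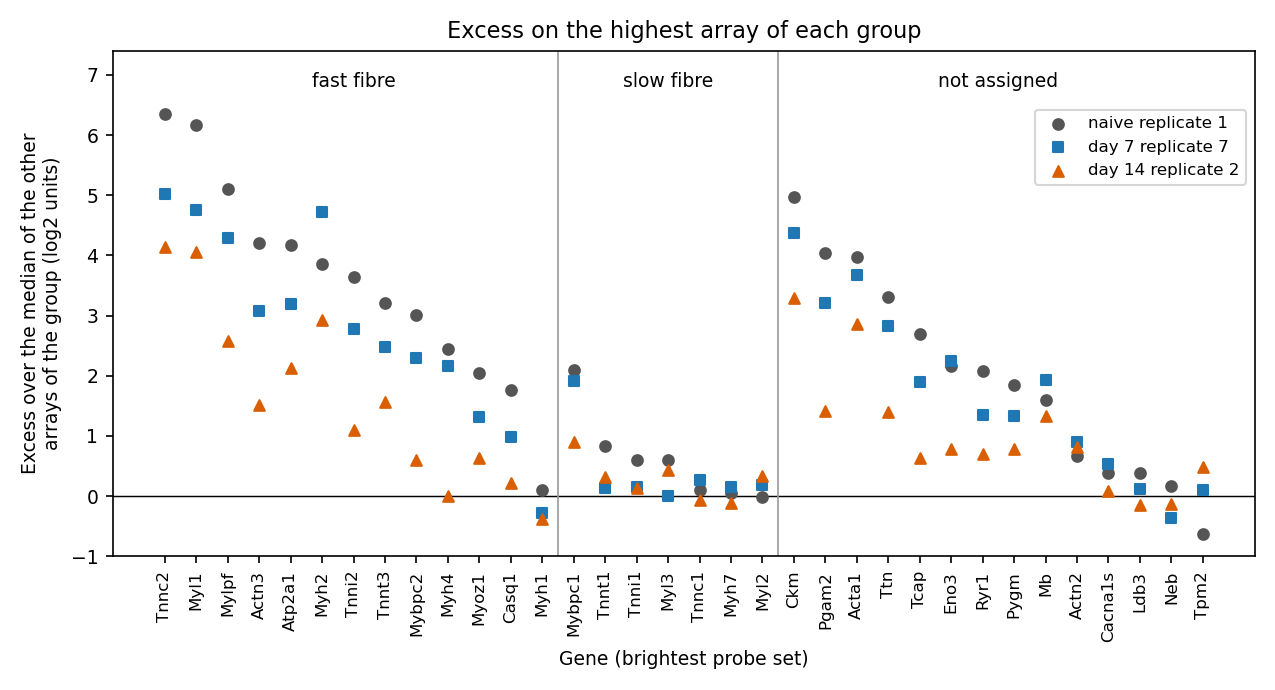
Each gene has 3 points, its excess in log2 units on naive replicate 1, day 7 replicate 7 and day 14 replicate 2, with fast genes at the left, slow genes in the middle and genes not assigned to a fibre type at the right. Each gene is read by its brightest probe set. Fast genes reach 6.35, and among slow genes only Mybpc1 exceeds 1.

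The promoters of 4 genes are shown because their transcripts were high together on the 3 arrays while belonging to different parts of the fibre: the creatine kinase Ckm, the actin Acta1, the troponin Tnnc2 and the myosin Myh2. Each is the stretch of 250 bases before the annotated start, 5′ to 3′ on the strand of the gene, from RefSeq in build GRCr8. Capitals mark matches on either strand to the E-box CAGCTG, which myogenic factors can bind, to CATTCC, which TEAD factors can bind, to TATAAA, to the CArG box of serum response factor and to the MEF2 motif.
Ckm, chr1:88189211-88189460, plus strand: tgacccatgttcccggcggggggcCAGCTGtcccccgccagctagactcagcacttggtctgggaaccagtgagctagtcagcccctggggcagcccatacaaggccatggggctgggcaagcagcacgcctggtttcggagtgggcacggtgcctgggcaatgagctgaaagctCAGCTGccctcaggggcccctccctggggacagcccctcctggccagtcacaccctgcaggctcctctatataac
Acta1, chr19:68784195-68784444, minus strand: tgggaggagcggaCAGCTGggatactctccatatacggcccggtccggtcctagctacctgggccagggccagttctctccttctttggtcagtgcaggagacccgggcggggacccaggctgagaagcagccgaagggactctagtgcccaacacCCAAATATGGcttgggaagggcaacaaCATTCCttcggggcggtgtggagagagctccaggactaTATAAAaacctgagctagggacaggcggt
Tnnc2, chr3:173935340-173935589, minus strand: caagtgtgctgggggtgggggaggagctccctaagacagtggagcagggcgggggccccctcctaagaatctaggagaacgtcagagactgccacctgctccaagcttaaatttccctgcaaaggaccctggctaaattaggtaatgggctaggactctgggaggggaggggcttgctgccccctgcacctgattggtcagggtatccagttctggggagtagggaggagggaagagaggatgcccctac
Myh2, chr10:52355489-52355738, plus strand: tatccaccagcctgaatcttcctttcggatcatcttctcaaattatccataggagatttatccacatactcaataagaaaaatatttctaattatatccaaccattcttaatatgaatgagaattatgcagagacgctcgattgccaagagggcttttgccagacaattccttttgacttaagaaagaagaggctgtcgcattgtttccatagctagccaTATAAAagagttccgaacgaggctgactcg

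Counted from the start, Ckm held CAGCTG at -226 and at -75. Acta1 held CAGCTG at -237, a CArG box from -94 to -85, CATTCC at -67 and TATAAA at -29. Myh2 held TATAAA at -30, and Tnnc2 held none of the 5, which says only that these letters are not in this window. RefSeq promoters were matched for 30 of the 34 genes. CAGCTG was present in 11 of the 30 and in 12% of all 33469 promoters, TATAAA in 11 and 12.9%, CATTCC in 8 and 12.1%, the MEF2 motif in 4 and 2.96%, and the CArG box in 4 and 1.5%. Among the 12 matched genes with an excess of at least 1 on all 3 arrays, 5 held CAGCTG, 6 TATAAA, 2 CATTCC, 1 MEF2 and 1 CArG. A match is a description of the sequence, not a measured binding site.

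A smaller signal was present at day 7. Each of the other arrays was set against the median of the arrays that remained in its group, with the highest array and the array itself left out. By this measure 5 genes of 34 stood at least 1 log2 unit higher on day 7 replicate 6 (0.0773% of all probe sets), 5 on replicate 4 (0.374%) and 4 on replicate 2 (0.522%). Tnnc2 was at 8.70, 7.74 and 7.53 on these 3 arrays, against 4.89 to 5.09 on day 7 replicates 1, 3 and 5. Ckm was at 7.78, 7.74 and 7.28 there, against 5.94 to 6.10. The day 7 excess of Tnnc2 and Ckm given above is therefore smaller than it would be against replicates 1, 3 and 5 alone. In the naive group 1 gene, Tnnc2, reached this on replicate 4, at 6.59, and at day 14 none did on any of the other 6 arrays.

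How closely the genes moved together was described by the correlation of each with the mean of the other members over arrays, after the group means were taken off. Over all 19 arrays r was above 0.85 for 22 of 34 genes, which rests on the 3 high arrays. Over the other 16 arrays r was above 0.5 for 17 of 34 genes, beside 3.94% of all probe sets. It was 0.97 for Mylpf, 0.96 for Tnnc2, 0.95 for Ckm and 0.94 for Tnni2. Ryr1 stood at -0.36 and Myh2 at 0.22 over these 16 arrays, although both were high on the 3 arrays. The arrays share their amplification and normalization, so these values describe the data and carry no p-value.

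The design asks whether muscle transcripts differ between naive rats and rats after surgery. No member gene passed the test in any of the 3 comparisons. With limma, 0 of 34 passed an adjusted p of 0.05 at day 7 against naive, where 0% of all probe sets passed, 0 at day 14 against naive (0.139%) and 0 at day 14 against day 7 (0%). The smallest adjusted p from limma among the brightest probe sets was 0.544, 0.146 and 0.380. Over all 53 member probe sets it was 0.544, 0.0726 and 0.341, and 0 passed. At an unadjusted p under 0.05 there were 0 genes higher and 1 lower at day 7 (3.69% and 5% of all probe sets), 3 higher and 1 lower at day 14 against naive (10.9% and 8.79%), and 1 higher and 1 lower at day 14 against day 7 (7.11% and 4.22%). At day 14 against naive these were Neb (0.34), Tnni1 (0.27), Myh7 (0.16) and Myh1 (-0.28), and none of these brightest probe sets had an excess of 1. Neb depended on the probe set. Its dimmest, which followed the muscle transcripts, was at -0.51 (limma unadjusted p = 0.047, adjusted p = 0.248), and its second at 0.06. The second probe set of Myh7, with an excess of 1.81 and 1.27 on the naive and the day 14 array, was at 0.11. The lowest adjusted p-values at day 14 against naive came from other dimmer probe sets. The dimmest of Myh1 was at -0.37 (limma adjusted p = 0.0726) and the second of Pygm at 0.25 (limma adjusted p = 0.0765). A probe set of Ldb3 was at -0.55 (limma adjusted p = 0.0907). None of these had an excess of 1.

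The intervals were wide for the genes with the strongest signal. Tnnc2 had a naive mean of 6.97 ± 2.85 (SD, n = 5), a day 7 mean of 7.19 ± 2.38 (SD, n = 7) and a day 14 mean of 5.97 ± 1.59 (SD, n = 7). The day 14 difference of Tnnc2 from naive was -0.997 log2 units, with a 95% interval from -3.45 to 1.46 (limma adjusted p = 0.657). For Ckm the difference was -0.51, from -2.40 to 1.38 (limma adjusted p = 0.781), and for Acta1 it was -0.45, from -1.98 to 1.09 (limma adjusted p = 0.762). The median standard error over the 34 genes was 0.352 for the comparisons with naive, beside 0.080 over all probe sets. The spread within groups had a median of 0.672 log2 units against 0.138, and 22 of 34 genes lay in the top 1% of all probe sets by it.

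The members' median difference depended on single arrays. It was -0.05 at day 7, -0.32 at day 14 and -0.21 at day 14 against day 7, beside 0.01, 0.02 and 0.01 over all probe sets, and 23, 27 and 25 of 34 genes were lower. Without naive replicate 1 the first of these became 0.33 and the second 0.18, with the opposite sign. Without day 7 replicate 7 the day 7 value was -0.36 and that of day 14 against day 7 was 0.06. Without day 7 replicate 1, 3 or 5 the day 7 value was 0.04 to 0.05, and without day 14 replicate 2 the values against naive and against day 7 at day 14 were -0.47 and -0.31. The naive group without replicate 2 gave -0.51 at day 14, and leaving out naive replicate 2, 3, 4 or 5 gave -0.15 to -0.20 at day 7.

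With the highest array of each group left out together, 0 of 34 members passed in each comparison, where 0%, 0.0387% and 0% of all probe sets did. The median differences were 0.10, 0.02 and -0.05. The arrays left out were picked by these same genes. The members' standard errors, p-values and counts given here therefore describe the remaining arrays and carry no test. The median standard error then was 0.113 for the comparisons with naive, and the smallest adjusted p in limma was 0.348, 0.0815 (Tnni1 at 0.36) and 0.447. At an unadjusted p under 0.05 the higher and lower genes numbered 2 and 0 at day 7 (5.22% and 7.18% of all probe sets), 5 and 2 at day 14 (12.3% and 9.68%), and 1 and 7 at day 14 against day 7 (6.17% and 3.81%). The 7 lower were Acta1, Myl1, Tnnt3, Eno3, Mylpf, Casq1 and Ryr1, between -0.19 and -0.92, in a comparison whose day 7 group kept replicates 2, 4 and 6.

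**Figure D4:**
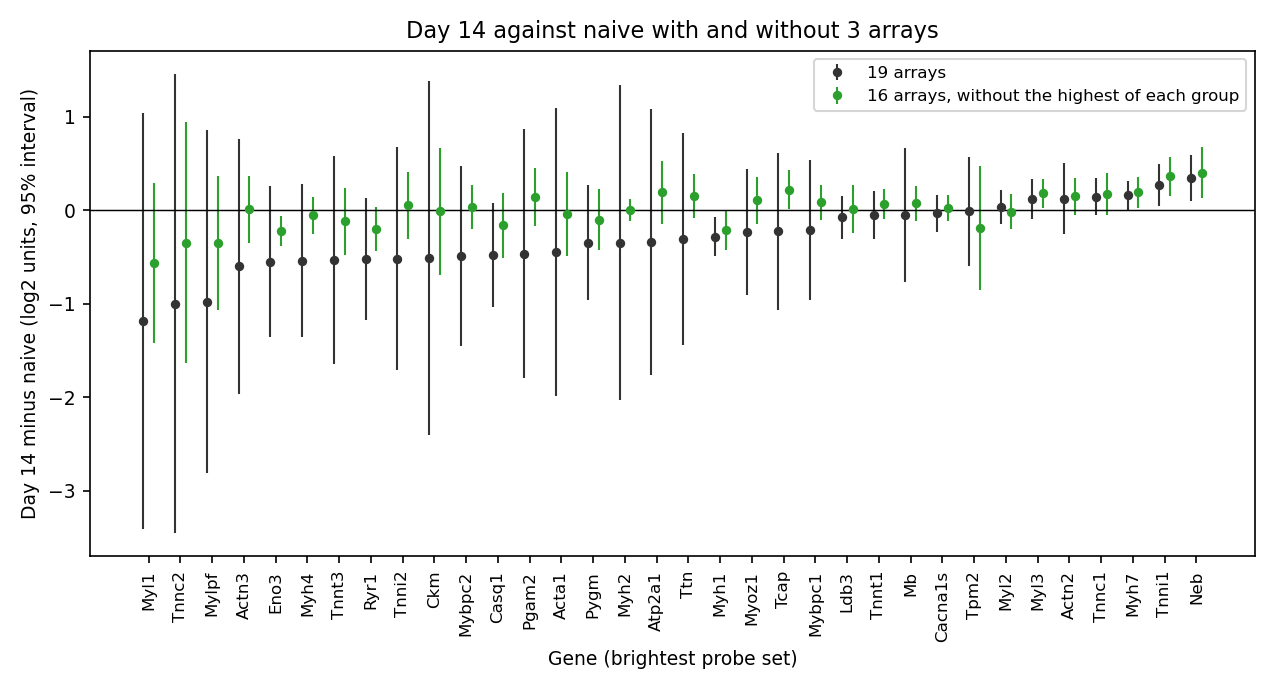
Points are limma's day 14 minus naive differences for the 34 genes, with 95% intervals, in black for 19 arrays and in green for the 16 arrays left without the highest of each group. The median is -0.32 with all arrays and 0.02 without the 3. The intervals of genes such as Tnnc2 and Ckm narrow, which follows from picking the 3 arrays by these same genes.

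The animal codes in the labels begin with AI, AJ or AK, whose meaning the labels do not give. Naive replicate 1 and day 7 replicate 7 share AJ, and day 14 replicate 2 has AI. Within AJ the median member difference was -0.73 at day 7 (5 arrays against 2), -1.09 at day 14 (2 against 2) and -0.33 at day 14 against day 7 (2 against 5). Within AK it was 0.23 at day 7 (2 against 3), the opposite sign, and AI held arrays of day 14 only. With the prefix as a block the medians were -0.25, -0.73 and -0.47, and no member passed (smallest limma adjusted p = 0.761 at day 14 against naive).

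Outside the set, few genes followed the signal on all 3 arrays. In all 16 probe sets had an excess of at least 1 on each of them. They were the 13 members named above, Car3 and Coch, and 1 probe set without a single symbol. That probe set followed closely, with an excess of 5.80, 3.36 and 2.98. Its r with the member mean was 0.97 over 19 arrays and 0.89 over 16, and which gene it reads was not tested. Car3, a carbonic anhydrase abundant in muscle and fat, had an excess of 2.24, 1.97 and 1.77 on this probe set. A dimmer probe set of Car3 had 0.71, 0.31 and 0.39. On the brighter one Car3 was at 10.90, 9.67, 8.0023, 8.73 and 8.58 in naive rats, between 6.34 and 9.96 with a median of 8.67 at day 7, and between 6.78 and 10.41 with a median of 8.78 at day 14. Its highest arrays at day 7 and day 14, replicate 4 and replicate 1, were not those of the muscle genes, and r with the member mean was 0.54 over 19 arrays and 0.19 over 16. Coch, a secreted matrix protein, had 1.05, 1.10 and 2.03 and an r of 0.25, and its highest arrays were others as well. Only 1 probe set was at least 1 log2 unit lower on all 3 arrays.

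By likeness of pattern, 49 probe sets (0.158%) had an r above 0.85 with the member mean over 19 arrays. Of these, 24 were of member genes, 23 belonged to 21 other genes, and 2 had no single symbol. A list of 59 measured other genes of striated muscle held 14 of the 21. They included Cox6a2, the muscle subunit of cytochrome c oxidase, with an excess of 2.23, 1.21 and 0.58. Ampd1, the AMP deaminase of muscle, had 1.85, 0.95 and 0.38, and Hjv, hemojuvelin, which muscle and liver express, had 2.06, 1.05 and 0.23. Klhl41, Trim54 and Myot, proteins of the sarcomere, had 1.84, 1.76 and 1.56 on naive replicate 1 and 0.33, 0.10 and 0.47 on day 14 replicate 2. Genes outside that list, named after their values were seen, included Tpm1, alpha-tropomyosin, with 2.43, 2.14 and 0.92 on the closest of its 7 probe sets. Adss1, an enzyme of the purine nucleotide cycle in muscle, had 3.31, 1.88 and 0.61 on 1 probe set, but 0.35, 0.16 and 0.12 on a brighter one. H19, a noncoding RNA, had 2.79, 1.53 and 0.26. The 5 lowest correlations, from -0.84 to -0.75, were of Lmbr1l, Fbxl12, Snrnp70, Acer2 and Pigh, whose excess lay between -0.53 and -0.04.

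Over the whole list of other striated muscle genes, 10 of 59 reached 1 on naive replicate 1, 4 on day 7 replicate 7 and 1 on day 14 replicate 2, and the median excess was 0.41, 0.22 and 0.06. Genes of muscle regulation and of the nerve-muscle contact did not reach this height. Of 5 measured regulators of the muscle programme, among them Myod1, Myf6 and Myog, 0 reached 1 on any of the 3 arrays, and Myf6 at 0.46 on naive replicate 1 was the highest. Of 13 genes of the endplate and of denervated fibres, which include the acetylcholine receptor subunits Chrna1 and Chrng and the embryonic myosin Myh3, 0 reached 1, with medians of 0.01, -0.07 and 0.01. Some genes of these lists were dim, with mean levels of 3.98 for Myf6, 4.16 for Musk, 4.17 for Mstn and 4.19 for Myod1. Such levels lie near the low end of the scale, where differences are compressed. Others were not dim, such as Mef2c at 9.90 and Chrne at 7.81. Of 9 cardiac or embryonic striated genes only Tnnt2, cardiac troponin T, did so, with -0.14, 1.17 and 1.51. Of the 86 genes of these 4 lists, 0 passed limma's adjusted threshold in any comparison, and the smallest adjusted p was 0.176, 0.0726 and 0.346. At an unadjusted p under 0.05, 4 were higher and 3 lower at day 7 against naive (3.69% and 5% of all probe sets), 7 and 3 at day 14 against naive (10.9% and 8.79%), and 8 and 1 at day 14 against day 7 (7.11% and 4.22%).

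Markers of other tissues were read on the same arrays. On naive replicate 1, day 7 replicate 7 and day 14 replicate 2 the counts with an excess of at least 1 were 0, 0 and 0 for 12 smooth muscle and pericyte genes, for 12 tendon and fibroblast genes, for 13 adipocyte genes, for 8 bone and cartilage genes and for 7 endothelial genes. The adipocyte mean was 6.15 on naive replicate 1 against 6.22 to 6.55 on the other naive arrays, 5.98 on day 7 replicate 7 against 6.02 to 6.89, and 6.48 on day 14 replicate 2 against 6.23 to 6.84. The tendon and fibroblast mean was 9.51 against 9.56 to 9.67, 9.33 against 9.30 to 9.61, and 9.67 against 9.50 to 9.75. The smooth muscle and pericyte mean was 7.23 against 7.26 to 7.56 and 7.29 against 7.09 to 8.07, but at 7.64 on day 14 replicate 2 it lay above the 7.30 to 7.48 of all other day 14 arrays, and its part in the result was not tested. The endothelial mean was 8.43 against 8.55 to 8.81, 8.54 against 8.32 to 9.23, and 8.72 against 8.29 to 8.88. Red blood cell genes, 6 in all, had 1, 0 and 0 at this height, where Hbb, a beta-globin, stood at 1.27, -2.21 and -0.69. Of 8 oligodendrocyte and astrocyte genes, Gjb6, a gap junction protein, stood at 2.21 on day 14 replicate 2 alone. For 16 sensory neuron genes the median excess was 0.03, 0.17 and 0.05, and for 8 Schwann cell and satellite glia genes -0.14, 0.09 and 0.05.

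A gene of muscle that is also known from injured neurons went another way. Csrp3, the muscle LIM protein, was at 5.57, 5.27, 5.38, 4.71 and 4.74 in naive rats. Replicates 1 to 7 of day 7 had 7.76, 9.85, 5.03, 4.96, 5.06, 7.16 and 8.13, and those of day 14 had 8.38, 6.37, 10.47, 9.05, 9.27, 8.48 and 5.19. Naive replicate 1 was the highest of the naive arrays here too, and the excess of Csrp3 on the 3 arrays was 0.56, 2.02 and -2.40. Atf3, a transcription factor induced in neurons by axon injury, was between 7.94 and 8.44 in naive rats. Its day 7 values were 9.69, 11.15, 7.95, 7.28, 7.88, 9.18 and 10.17, and its day 14 values 9.77, 8.33, 11.63, 9.92, 11.04, 9.68 and 8.12. The arrays highest in Csrp3, day 7 replicate 2 and day 14 replicate 3, were the highest of their groups in Atf3 as well. On day 14 replicate 2, 5 of 12 axon injury genes were at least 1 log2 unit below the median of the other arrays, and on day 7 replicate 7, 3 were at least 1 above, which moves with 2 of the arrays high in muscle transcripts and whose part was not tested.

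**Figure D5:**
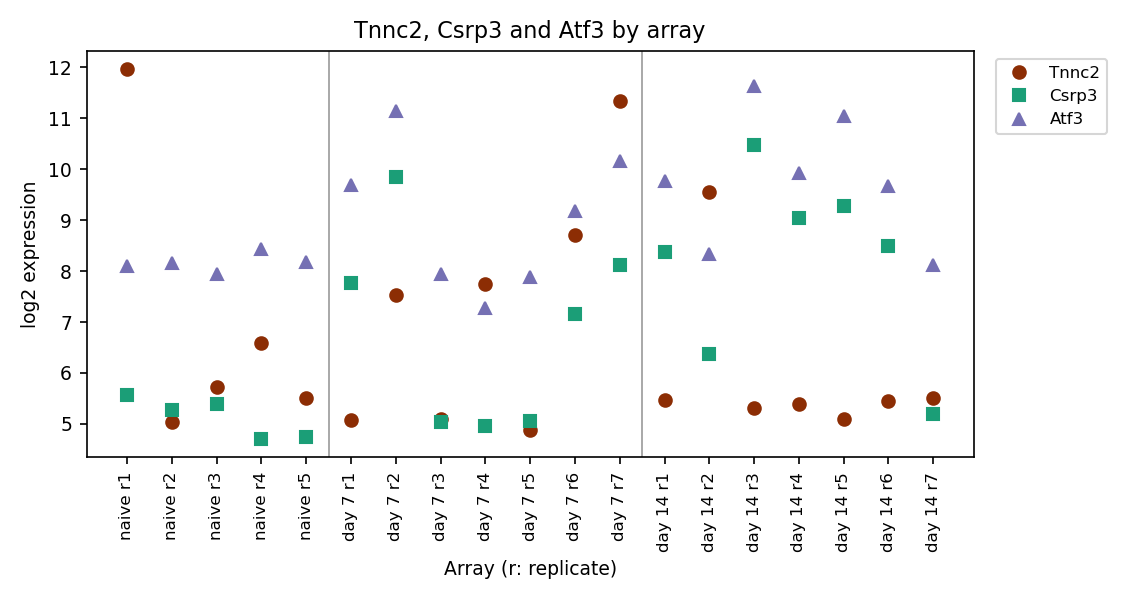
Points are log2 expression of Tnnc2, Csrp3 and Atf3 on each of the 19 arrays, and heights are to be compared within a gene only. Tnnc2 is highest on naive replicate 1 at 11.96, where Csrp3 is at 5.57, and Csrp3 is highest on day 14 replicate 3 at 10.47, where Atf3 is at 11.63.

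Of the 43 probe sets that passed limma's adjusted threshold at day 14 against naive, 0 were of member genes. The median spread within groups was 0.672 log2 units for the members and 0.138 over all probe sets, and its part in this count was not tested. The correlation of the 43 probe sets with the member mean lay between -0.51 and 0.60. Without the 3 arrays 12 probe sets passed, 0 of them of member genes.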

How the data were processed

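Single T11 ganglia of 19 rats were measured, and replicates were separate rats. Per the labels, 100 ng of RNA per ganglion went through 2 rounds of linear amplification, and 1 further naive array, removed by the submitters after quality control, was not used here. The deposited values are log2 levels per probe set, made by the authors with RMA, and limma was used, per the submitters' processing notes. Tool versions and settings of that step were not given in the sources used here. RMA compresses differences near its low end, so folds of dim genes are understated.

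Of 31099 probe sets, 57 controls were left out. Symbols came from the platform annotation, where 20826 probe sets carried 1 symbol, 436 several and 9780 none. The 3 probe sets that list a member among several symbols were set aside. Groups were compared with limma 3.58.1 in R 4.3.3 (lmFit and eBayes, 3 groups in 1 fit, 16 residual and 4.20 prior degrees of freedom), with Benjamini-Hochberg adjustment over 31042 probe sets at 0.05. The fit was tried on simulated data with changes added to randomly drawn probe sets. Such a trial does not show its power for genes with a spread as wide as that of the members. Python 3.11.15, numpy 2.4.6, pandas 2.3.3 and matplotlib 3.10.9 did the rest. The number of arrays limits the precision.

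The members and lists were chosen with earlier results of these data known. All members are accounted for, some with each naive array and the range and median of the operated groups. Other genes were named where they had the highest likeness among probe sets that follow on all 3 arrays, the 5 lowest likenesses, or a place on a list. Tpm1, Adss1 and H19 were chosen after their values were seen. Replicate numbers did not pair the arrays. Alternatives were a filter on dim probe sets, centring, moderation, array weights, the arrays in the fit, blocks, the probe set rule, thresholds and leaving out arrays.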

Additional observations from a re-analysis of the deposited data

Results flagged for a closer look

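In groups of 5 to 7 arrays, the gap from the highest array to the next, and from the lowest to the next, was compared with the range of the group. This was done for the member mean and for 12 genes in each of the 3 groups, 39 groups of values in all. Of these, 25 held an array apart, each time the highest. Chance gives an array apart at either end for 1 in 20 groups, or 1.95 of 39, if the values are independent and normally distributed. These genes move together and were listed with earlier results of these data known, so the 25 cannot be judged against that number. Naive replicate 1, day 7 replicate 7 and day 14 replicate 2 stood apart in the member mean, at 8.36, 8.06 and 7.18. They also did in Acta1 at 12.09, 11.99 and 10.82, in Ckm at 11.13, 11.06 and 9.58, in Tnnt3 at 9.42, 8.84 and 7.67, in Tnni2 at 9.45, 8.82 and 6.98, in Atp2a1 at 9.78, 9.14 and 7.94, and in Tcap at 7.93, 7.35 and 6.10. Myh4 stood apart on naive replicate 1 at 7.06 and on day 7 replicate 7 at 6.81, but not at day 14. Among the slow troponins, Tnnc1 stood apart on day 7 replicate 7 at 8.12 and Tnnt1 on day 14 replicate 2 at 5.59.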

How the results depend on the processing

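No member passed limma's adjusted threshold in any of 29 settings per comparison, and the smallest adjusted p in any setting was 0.348 at day 7 against naive, 0.0505 at day 14 against naive and 0.269 at day 14 against day 7. The members' median difference changed sign with single arrays. Leaving out each array in turn gave -0.36 to 0.33, -0.51 to 0.18 and -0.31 to 0.06. Without the highest arrays and day 7 replicates 2, 4 and 6, an alternative chosen after seeing the data, the medians were -0.05, 0.02 and 0.11. Replicate numbers did not pair the arrays, since 3 of 17 same-number pairs had a correlation over 0.1 (-0.26 to 0.33), and the fit with the replicate number as a block gave medians of -0.20, -0.45 and -0.21 and 0 members passed. With dim probe sets left out, 10 members remained, of which 7, 7 and 6 were highest on the 3 arrays. The fast genes left were Myh1, Casq1 and Myoz1, and the only slow gene was Tnnc1. On these few genes slow minus fast excess was -1.66, -0.72 and -0.29. Without the myosin heavy chains it was -3.30 on naive replicate 1, and with the mean of all probe sets -0.78 on day 14 replicate 2. The probe sets that follow numbered 33 at a threshold of 0.5 and 8 at 2, in place of 16. Members with an r above 0.5 numbered 27 over 19 arrays and 17 without the highest arrays. The number of arrays and the spread between rats limit the precision.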
